A study of Mus musculus with 20 samples.

Results

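The hippocampus was compared with the neocortex in control mice at 3 months of age. The 10 control libraries, 5 of each region, were chosen by their titles (WT HP and WT NCX, each numbered 1 to 5) from the 20 libraries of the series. Of the 24421 genes in the deposited counts, 13832 had more than 1 CPM (counts scaled to a common library total) in at least 5 of the 10 libraries and were tested. The mice are labelled wild type. The study's methods describe them as littermates of conditional triple knockout (cTKO) mice on a C57BL/6J;129 hybrid background, of both sexes. These controls carry floxed alleles of App, Aplp1 and Aplp2 but lack the Camk2a-Cre transgene that deletes those genes in forebrain excitatory neurons of the cTKO mice. Both regions were taken from the same 5 controls according to the methods, and the main fit did not pair them. Whole tissue was dissected, so each library pools neurons, glia and vessels. Hippocampal RNA was extracted with the RNeasy Plus Mini and neocortical RNA with the RNeasy Plus Universal reagents, and an effect of the extraction cannot be told apart from the region.

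The hippocampus is an old part of the cortex in evolution, built around dentate granule cells and the pyramidal neurons of CA3, CA2 and CA1, which are linked in a chain of excitatory synapses and are needed for forming memories of places and events. The neocortex has layered pyramidal neurons that differ in their targets: those of the upper layers project within the cortex, and those of the deep layers project to the brainstem, spinal cord and thalamus. In both regions, transcription factors set up neuron identity in development and many remain expressed in the adult, and region-specific receptors and channels shape how the neurons respond.

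Total counts ranged from 19552353 to 23237803 in the hippocampal libraries and from 12169474 to 24842764 in the neocortical libraries. A count of 3, taken as the floor, equalled 0.121 to 0.247 CPM, which takes account of counting error alone because duplicate reads of a molecule cannot be recognised. With a false discovery rate (FDR) under 0.05 in edgeR's quasi-likelihood test, 8169 genes differed between the regions (59.1% of those tested). Of these, 4124 (29.8%) were higher in the hippocampus and 4045 (29.2%) in the neocortex. Counts of list members given below are to be read beside these shares. A fold change of at least 2 was added to separate large differences from small ones. It was met by 441 genes that were higher in the hippocampus (3.19%) and by 702 that were higher in the neocortex (5.08%). All 5 hippocampal libraries lay above all 5 neocortical libraries for 3067 genes (22.2%) and below them for 3071 (22.2%). The median log2 fold change over all genes tested was 0.01. Throughout, a log2 fold change is that of the hippocampus over the neocortex, positive where the hippocampus was higher, and is given ± its SE. A value with ± after the name of a gene is this log2 fold change unless another quantity is named. Levels are TMM-scaled CPM, and their order over libraries is that of the library numbers 1 to 5. CPM is not divided by gene length, so levels of different genes are not compared. In whole tissue, fewer cells of a type and less RNA per cell cannot be told apart.

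**Figure D1:**
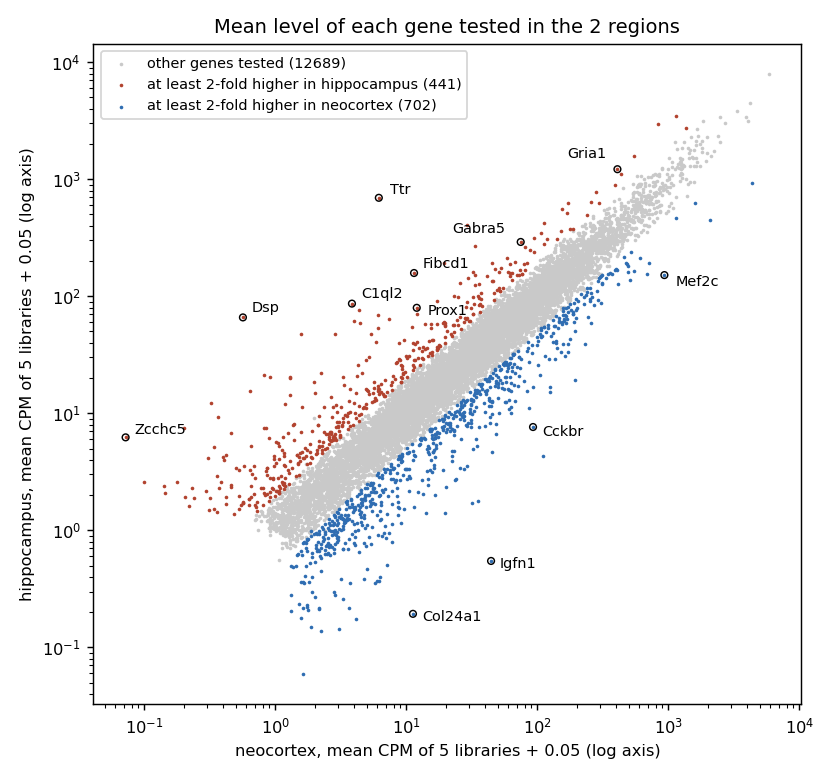
Mean CPM of each of the 13832 genes tested in the neocortex (horizontal) and the hippocampus (vertical), both on log axes after adding 0.05, with the 441 and 702 genes at least 2-fold higher in each region in colour. Dsp, Ttr and Zcchc5 lie far above the diagonal and Igfn1 and Col24a1 far below it, and Mef2c stands out among highly expressed genes of the neocortex.

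Several of the largest differences in favour of the hippocampus were those of markers of single subfields. Dsp encodes desmoplakin, a protein of desmosomes, and marks dentate granule cells (chromosome 13, 38151294 to 38198577 in GRCm38). Its level was 46.4, 68.2, 53.7, 86.4 and 74.99 CPM in hippocampal libraries 1 to 5 and 0.446, 0.478, 0.413, 0.131 and 1.11 CPM in neocortical libraries 1 to 5 (log2 fold change of 7.01 ± 0.27, FDR = 1.74e-11). The lowest hippocampal library thus held many times the level of the highest neocortical library. Lct, the gene of lactase and a granule cell marker (chromosome 1, 128284756 to 128328318), had 30.8, 44.9, 45.5, 54.7 and 60.8 CPM in the hippocampus and 1.83, 2.03, 1.16, 1.44 and 1.18 CPM in the neocortex (log2 fold change of 4.9 ± 0.20, FDR = 3.74e-11). Tdo2, whose product opens the ring of tryptophan (chromosome 3, 81958412 to 81975728), had 5.21, 9.298, 6.88, 6.78 and 8.804 CPM against 0.325, 0, 0.0825, 0 and 0.348 CPM (log2 fold change of 5.42 ± 0.39, FDR = 1.95e-08), and it rose to 6.08 without neocortical library 1. Neither gene overlapped between the regions.

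Lefty1, an antagonist of Nodal signalling and a CA1 marker (chromosome 1, 180935022 to 180938401), was at 8.82, 7.98, 10.4, 9.01 and 10.3 CPM in the hippocampus and at 0.365, 0.119, 0.578, 0.457 and 0.0696 CPM in the neocortex (log2 fold change of 4.86 ± 0.26, FDR = 5.84e-10). The hippocampal libraries were close together and far above all neocortical libraries. Zcchc5, a gene of a CCHC zinc finger protein (chromosome X, 106837082 to 106840539), had the largest fitted difference of all. It had 654 reads over the 5 hippocampal libraries (5.71, 6.87, 5.07, 6.35 and 6.89 CPM) and 2 reads over the 5 neocortical libraries. The ratio of these sums per total count was 259, with an exact 95% interval for counting error of 71.3 to 2140. Slc9a4, a sodium-proton exchanger (4.82 ± 0.18), Lhx9, a LIM homeodomain factor (4.63 ± 0.22), Spink8, a protease inhibitor of the Kazal type (5.61 ± 0.49), and Syna, a syncytin of retroviral origin (4.62 ± 0.30), were also among the 10 largest differences with no overlap and at least 5 CPM. The spans of Lefty1, Slc9a4 and Spink8 overlap those of predicted genes in RefSeq, and the counting is not stated to use strand, so reads in shared stretches may belong to either gene. The remaining gene of the 10, Ttr (transthyretin), is a product of the choroid plexus and is given with the other genes of that tissue.

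Among genes with a mean of at least 5 CPM, the largest difference in favour of the neocortex belonged to Igfn1, a gene of a protein with immunoglobulin and fibronectin domains (chromosome 1, 135953205 to 136040925; its span overlaps that of another gene). Its level was 52.9, 44.5, 41.6, 40.02 and 42.5 CPM in neocortical libraries and 0.852, 0.426, 0.724, 0.379 and 0.104 CPM in hippocampal libraries (log2 fold change of -6.45 ± 0.20, FDR = 2.57e-12). Col24a1, a fibrillar collagen gene (chromosome 3, 145292472 to 145552013), had 8.44, 10.8, 9.33, 12.3 and 15.2 CPM in the neocortex and 0.1504, 0.0853, 0.136, 0.1896 and 0.155 CPM in the hippocampus (log2 fold change of -6.23 ± 0.25, FDR = 2.61e-11). Rasgef1c, a guanine nucleotide exchange factor of Ras proteins (chromosome 11, 49901169 to 49980223), had 34.1, 32.4, 37.2, 36.7 and 34.3 CPM against 1.75, 1.83, 1.77, 1.47 and 1.86 CPM (log2 fold change of -4.32 ± 0.09, FDR = 5.88e-14). For these genes no library of either region came near the other region. The span of Col24a1 overlaps that of a predicted gene.

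Other large differences included those of Abi3bp, an extracellular matrix protein (-4.26 ± 0.27), Mei1, known from meiosis (-4.24 ± 0.24), the metalloprotease Adam33 (-4.21 ± 0.24), the uncharacterised A830009L08Rik (-4.18 ± 0.28), and Cd6 (-4.16 ± 0.31) and Cd4 (-3.93 ± 0.25), both known as surface proteins of T cells. From Mei1 to Cd4 these were genes of low level in the neocortex, under 10 CPM in every library, and every hippocampal library was under 1 CPM.

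Transcription factors of hippocampal and dorsal telencephalic identity were mostly higher in the hippocampus. Of 21 listed, 20 passed the filter, 14 were higher in the hippocampus, 5 were higher in the neocortex, and the median log2 fold change was 0.68. Prox1, the homeodomain factor that keeps dentate granule cells in their identity, was at 62.7, 85.4, 74.9, 88.3 and 86.8 CPM in the hippocampus and at 10.7, 11.6, 16.2, 10.1 and 11.3 CPM in the neocortex (log2 fold change of 2.75 ± 0.12, FDR = 8.21e-11). The regions were well apart, with hippocampal library 1 the lowest of its group and neocortical library 3 the highest of its own. Neurod6, a basic helix-loop-helix (bHLH) factor of pyramidal neurons, had 359, 254, 330.1, 303 and 294 CPM against 123, 125, 116, 117 and 115 CPM (log2 fold change of 1.37 ± 0.08, FDR = 1.16e-09). Its family members Neurod1 (0.81 ± 0.09) and Neurod2 (0.84 ± 0.08) were higher in the hippocampus by less, and Bhlhe22, a related repressor, was 3.03-fold higher (1.6 ± 0.09). Zbtb20, a zinc finger repressor needed for CA1 identity, had 15.8, 14.2, 31.6, 17.4 and 18.95 CPM against 6.53, 8.005, 10.2, 8.29 and 7.66 CPM (log2 fold change of 1.28 ± 0.19, FDR = 4.29e-05), with hippocampal library 3 above the rest. Zeb2 (0.86 ± 0.06), Nfia (0.7 ± 0.09) and Nfib (0.67 ± 0.07) also passed the test in this direction.

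The exceptions within this list were Meis2 (-1.29 ± 0.11), Satb1 (-1.05 ± 0.05), Emx1 (-0.64 ± 0.09), Lef1 (-0.53 ± 0.09) and Klf9 (-0.16 ± 0.07), which were higher in the neocortex. Klf9, the smallest of these differences, lost the call when any of hippocampal libraries 1 to 3 or neocortical libraries 1, 3, 4 or 5 was left out. Emx1 and its paralogue Emx2 (0.77 ± 0.09), homeodomain factors that pattern the early cortex, passed the test in opposite directions.

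Layer factors of the neocortex showed the reverse. All 26 listed were tested, 14 were higher in the neocortex and 7 in the hippocampus, with a median of -0.47. Mef2c, a MADS-box factor that acts in the development of synapses, was at 994, 929, 992, 879.9 and 873 CPM in the neocortex and at 143, 151, 141, 156 and 168 CPM in the hippocampus (log2 fold change of -2.62 ± 0.06, FDR = 2.54e-13). Cux2, a factor of the upper layers, had 98.2, 83.5, 89.9, 95.8 and 98.3 CPM against 17.7, 17.2, 18.1, 14.8 and 15.4 CPM (log2 fold change of -2.48 ± 0.07, FDR = 1.0e-12). In each of these genes the libraries of a region were close and the regions were far apart. Foxp2, a forkhead factor of layer 6, was at 20.7, 21.4, 22.5, 20.2 and 16.4 CPM in the neocortex and at 4.41, 1.62, 2.63, 1.47 and 1.35 CPM in the hippocampus (log2 fold change of -3.14 ± 0.24, FDR = 2.80e-08). Hippocampal library 1 had the highest Foxp2 of its group.

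Tbr1, a T-box factor of deep layers (-1.88 ± 0.07), Pou3f2 (-1.6 ± 0.07), Cux1 (-1.43 ± 0.05), Rorb, the nuclear receptor of layer 4 (-1.35 ± 0.09), and Rora (-1.22 ± 0.06) went the same way as Cux2. The layer list also held 7 genes that were higher in the hippocampus. After Bhlhe22 the leading ones were Bcl11b (0.86 ± 0.07), a zinc finger factor of neurons that project out of the cortex and of granule and CA1 neurons, Bcl6 (0.8 ± 0.07) and Zfpm2 (0.67 ± 0.07). Over 141 genes of transcription factor families chosen by symbol, 34 were higher in the hippocampus and 56 in the neocortex (median -0.12). Another 67 did not pass the filter. The shares over all genes tested were 29.8% and 29.2%.

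**Figure D2:**
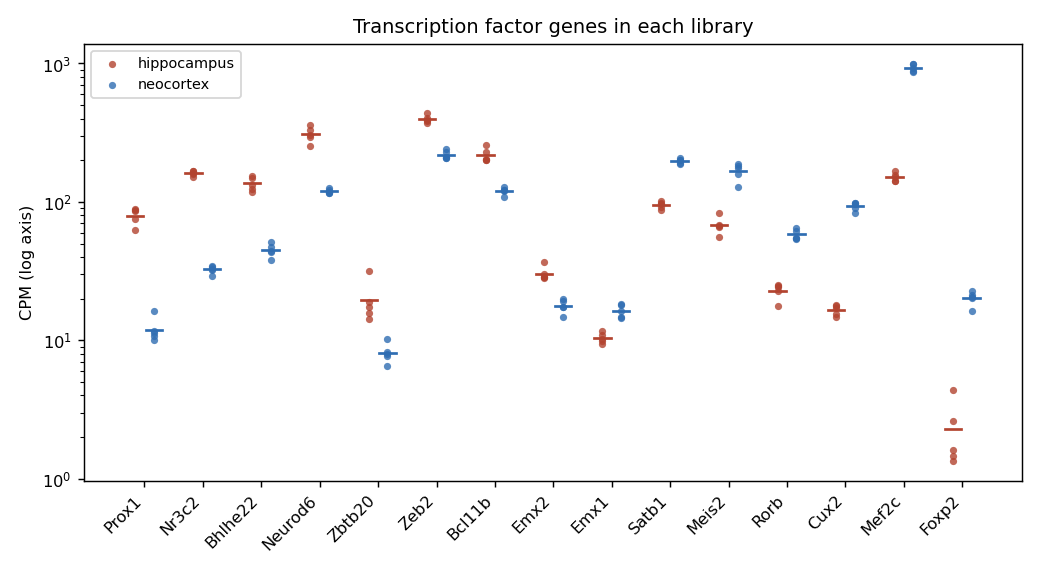
CPM (log axis) of 15 transcription factor genes in each library, with 5 points and a mean line for the hippocampus and for the neocortex. No gene shown overlapped between the regions, and the widest gaps are those of Nr3c2, Prox1, Cux2, Mef2c and Foxp2.

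Promoters were searched for a bHLH motif because the bHLH factors above were higher in the hippocampus. A NeuroD-type E-box, spelled CAGATG, was searched on both strands from 250 bases before to 50 bases after each RefSeq start in GRCm38.p6. The E-box was present in 17.2% of all 32851 promoters of the reference table and in 11.8% of those of the genes tested. Its share was 19.1% in promoters of genes at least 2-fold higher in the hippocampus and 14.3% in those at least 2-fold higher in the neocortex. These shares are descriptions of letters in a short window and were not tested, and the sets differ from the genes tested in other ways, such as base composition, that were not examined. The promoters of 3 genes follow, 5′ to 3′ on the strand of the gene, with matches in capitals.
Gabra5 and Prox1 were higher in the hippocampus, and Cux2 in the neocortex. Prox1 and Cux2 have 2 starts each in the table, and the start that holds a match is shown. The other start of each holds none. All 3 promoters shown hold a match, unlike most promoters, so they do not show how common matches are. Binding or control by bHLH factors was not tested.
Prox1, chr1:190170778-190171077, minus strand: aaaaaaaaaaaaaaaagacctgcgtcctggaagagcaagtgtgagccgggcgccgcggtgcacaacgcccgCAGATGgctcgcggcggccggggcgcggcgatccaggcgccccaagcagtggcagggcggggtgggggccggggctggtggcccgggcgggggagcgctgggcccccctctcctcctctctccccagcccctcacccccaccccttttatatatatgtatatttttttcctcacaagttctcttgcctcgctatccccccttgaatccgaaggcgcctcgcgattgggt
Gabra5, chr7:57510010-57510309, minus strand: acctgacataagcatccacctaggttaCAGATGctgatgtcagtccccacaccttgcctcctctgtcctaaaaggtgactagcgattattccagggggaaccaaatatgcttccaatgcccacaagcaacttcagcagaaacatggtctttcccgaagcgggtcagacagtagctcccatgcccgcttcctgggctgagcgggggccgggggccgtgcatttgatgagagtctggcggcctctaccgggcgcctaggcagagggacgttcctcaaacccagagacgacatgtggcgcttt
Cux2, chr5:122047776-122048075, minus strand: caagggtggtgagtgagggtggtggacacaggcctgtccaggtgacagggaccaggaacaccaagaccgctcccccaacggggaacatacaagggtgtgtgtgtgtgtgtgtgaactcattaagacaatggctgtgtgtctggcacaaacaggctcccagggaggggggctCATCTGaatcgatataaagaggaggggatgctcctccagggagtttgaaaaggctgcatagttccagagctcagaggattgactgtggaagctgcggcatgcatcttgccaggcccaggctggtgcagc

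Each hippocampal subfield was represented by markers that were higher in the hippocampus. Of the 15 markers of dentate granule cells, 11 were higher there, 7 of them at least 2-fold, and 3 were higher in the neocortex (median 0.92). Beside Dsp, Tdo2, Lct and Prox1, the leading gene was C1ql2, a secreted C1q-like protein of mossy fibre synapses. It was at 64.3, 109, 79.8, 97.5 and 82.2 CPM in the hippocampus and at 2.48, 3.35, 3.63, 4.24 and 5.29 CPM in the neocortex (log2 fold change of 4.55 ± 0.18, FDR = 1.89e-11). Its paralogue C1ql3 differed by much less (0.6 ± 0.07). Granule cell markers that went the other way were Gabrd, the delta subunit of extrasynaptic GABA receptors (-1.39 ± 0.07), and Pdyn, the precursor of dynorphins (-0.63 ± 0.11), which cells of the neocortex also express. Plk5 differed by a small amount (-0.23 ± 0.09), its libraries overlapped, and it lost the call when hippocampal library 1 (-0.18) or 3 or neocortical library 1, 2 or 5 was left out.

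Of 8 markers of hilar mossy cells, 5 were higher in the hippocampus and 2 in the neocortex (median 0.72). Calb2 (calretinin) had 56.4, 72.8, 53.8, 33.3 and 49.5 CPM against 11.9, 17.5, 13.9, 15.7 and 18.4 CPM (log2 fold change of 1.79 ± 0.17, FDR = 4.06e-07), and Calcrl, a receptor of calcitonin gene-related peptide and adrenomedullin, was also higher (0.8 ± 0.11). Drd2 (-2.62 ± 0.20), which mossy cells and striatal neurons share, and Ajap1 (-0.29 ± 0.06) were higher in the neocortex.

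Of 12 CA3 markers 11 were tested, 8 were higher in the hippocampus and 1 was higher in the neocortex (median 0.70). Homer3, a scaffold of metabotropic glutamate receptors, had 49.2, 51.1, 56.7, 66.5 and 46.04 CPM against 5.803, 6.27, 5.94, 5.81 and 6.54 CPM (log2 fold change of 3.15 ± 0.10, FDR = 4.39e-12). St18, a zinc finger factor (2.31 ± 0.12), Bok, a Bcl-2 family member (1.38 ± 0.14), and Grik4, a kainate receptor subunit of mossy fibre synapses (1.28 ± 0.08), also lay apart in the regions. Coch (cochlin) was the exception (-1.17 ± 0.21). In CA2, 8 markers were listed and 7 were tested, 4 were higher in the hippocampus and 2 in the neocortex (median 0.75). The first were led by the neurotrophin Ntf3 (2.18 ± 0.17), the adhesion protein Amigo2 (1.5 ± 0.14) and Rgs14, a regulator of G protein signalling (1.17 ± 0.07). Pcp4, a calmodulin-binding peptide that CA2 shares with deep layers of the neocortex, was at 215, 240.3, 227, 236 and 214 CPM in the neocortex and at 97.05, 117, 122, 119.7 and 112 CPM in the hippocampus (log2 fold change of -1.0 ± 0.06, FDR = 4.36e-09).

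All 10 CA1 markers were tested, 7 were higher in the hippocampus and 6 of these were at least 2-fold higher (median 1.26). Fibcd1, a receptor of acetylated sugars such as chitin, had 182, 144, 124, 137 and 203 CPM in the hippocampus and 12.3, 12.01, 10.3, 9.66 and 12.8 CPM in the neocortex (log2 fold change of 3.78 ± 0.14, FDR = 1.09e-11). The lowest hippocampal library, 3, was many-fold above the highest neocortical library. Gpr161, an orphan receptor of primary cilia (2.63 ± 0.15), Ndst4, an enzyme of heparan sulfate synthesis (1.47 ± 0.13), and Pou3f1, a POU factor (1.16 ± 0.11), followed. Wfs1, a protein of the endoplasmic reticulum, did not pass the test (-0.24 ± 0.13, FDR = 0.126) but was higher in the neocortex with the library number as a block (-0.27, FDR = 0.00824) or without hippocampal library 5 (-0.38, FDR = 0.00481). Tyro3, a receptor tyrosine kinase, was higher in the neocortex (-1.25 ± 0.08).

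Markers of neocortical layers were higher in the neocortex for layers 2/3, 4 and 6 but mostly not for layer 5. Of 5 markers of layers 2/3, 4 were at least 2-fold higher in the neocortex (median -2.37). Lamp5, a lysosome-associated protein of upper layers and some interneurons, had 254, 209, 231, 232 and 231 CPM in the neocortex and 40.95, 35.8, 36.3, 39.1 and 44.8 CPM in the hippocampus (log2 fold change of -2.56 ± 0.07, FDR = 7.46e-13). Otof, the gene of otoferlin (-2.37 ± 0.13), and Rasgrf2, an exchange factor for Ras (-1.13 ± 0.07), followed Cux2 and Lamp5. Calb1 (calbindin), which granule cells also express, differed by 0.24 ± 0.08 with overlap, and it lost the call without hippocampal library 5 (0.18) or neocortical library 4 or 5. Of 5 layer 4 markers, 4 were at least 2-fold higher in the neocortex (median -1.35), among them Rspo1, a secreted enhancer of Wnt signalling (-2.55 ± 0.16), and the potassium channel Kcnh5 (-1.85 ± 0.13). Scnn1a, an epithelial sodium channel subunit, was higher in the hippocampus (0.43 ± 0.10), but not with FDR under 0.05 when all 20 libraries of the series were fitted (0.43, FDR = 0.0597).

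Of 11 layer 6 and subplate markers, 7 were higher in the neocortex and 4 were not called (median -1.10). After Foxp2 the leading genes were Cplx3, a complexin of the subplate (-1.84 ± 0.12), Nxph4 (-1.65 ± 0.19) and Syt6, a synaptotagmin (-1.64 ± 0.09), and the neurotensin receptor Ntsr1 of corticothalamic neurons was also higher (-1.55 ± 0.15). Of 11 layer 5 markers, 7 were higher in the hippocampus and 3 in the neocortex (median 0.48). Crym, which binds thyroid hormone and is also known from CA1, had 147, 130.3, 118, 124 and 126 CPM in the hippocampus and 24.6, 23.8, 26.5, 27.6 and 25.1 CPM in the neocortex (log2 fold change of 2.34 ± 0.07, FDR = 1.15e-12). Hsd11b1, the enzyme that regenerates active glucocorticoid, had 26.7, 31.8, 32.3, 31.5 and 32.3 CPM against 10.6, 10.2, 9.99, 10.6 and 10.6 CPM (log2 fold change of 1.57 ± 0.07, FDR = 1.31e-10). Deptor, an inhibitor of mTOR, was the leading layer 5 gene in favour of the neocortex (-1.56 ± 0.08). The other layer 5 genes that were higher in the hippocampus were Bcl11b, Fam84b (1.23 ± 0.10), Npr3, the clearance receptor of natriuretic peptides (1.09 ± 0.10), Etv1, an ETS factor (0.48 ± 0.07), and Fezf2, a zinc finger factor that directs neurons to project to the spinal cord (0.26 ± 0.08). Fezf2 did not pass the test when all 20 libraries were fitted (0.26, FDR = 0.124). Hippocampal neurons are known to express Bcl11b and Crym too.

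**Figure D3:**
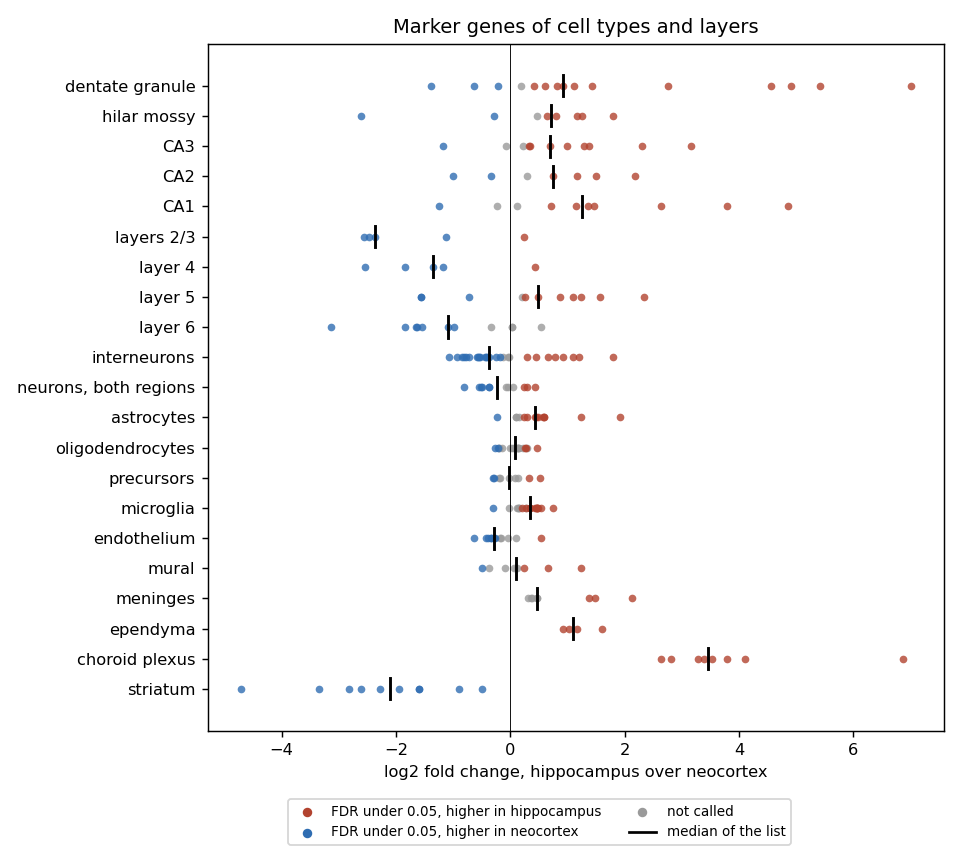
Log2 fold change (hippocampus over neocortex) of every tested marker of 21 lists of cell types and layers, coloured by its call, with a black line at the median of each list. The dentate, mossy, CA3, CA2 and CA1 lists lie mostly to the right, and layers 2/3, 4 and 6 to the left. Medians of the glial lists run from -0.02 (precursors) to 0.44 (astrocytes). Choroid plexus has the highest median (3.45) and layers 2/3 the lowest (-2.37), followed by striatum (-2.11).

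Among glutamate receptor genes, the largest difference in either direction was that of an auxiliary subunit of AMPA receptors. Of 41 genes listed by symbol 38 were tested, 12 were higher in the hippocampus and 19 in the neocortex (median -0.20). Shisa6, an auxiliary subunit that keeps AMPA receptors at the synapse, had 247, 224, 261, 304 and 308 CPM in the hippocampus and 29.02, 31.1, 32.02, 37.7 and 37.9 CPM in the neocortex (log2 fold change of 3.01 ± 0.10, FDR = 5.60e-12). Cnih2, a cornichon that slows AMPA receptor gating, had 528, 666, 645, 657 and 611 CPM against 163, 168, 162, 186 and 187 CPM (log2 fold change of 1.85 ± 0.07, FDR = 1.67e-11). Gria1, the GluA1 subunit, had 1177, 1208, 1102, 1247 and 1358 CPM against 380.4, 424, 400.1, 423 and 417 CPM (log2 fold change of 1.58 ± 0.06, FDR = 1.31e-11). All 3 were higher in every hippocampal library, and the GluA3 subunit Gria3 was higher in the neocortex (-0.57 ± 0.05).

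Gsg1l, an auxiliary subunit that reduces AMPA receptor currents, was at 138, 150.00, 162, 172 and 185 CPM in the neocortex and at 34.9, 28.7, 26.99, 24.9 and 37.3 CPM in the hippocampus (log2 fold change of -2.4 ± 0.11, FDR = 1.04e-10), and Cacng3, a transmembrane AMPA receptor regulatory protein, differed by -1.43 ± 0.05. The metabotropic receptor Grm4 (-1.86 ± 0.06) and the kainate receptor subunit Grik3 (-1.4 ± 0.08) were higher in the neocortex too.

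Among the 15 GABA receptor subunits tested, 6 were higher in the hippocampus and 7 in the neocortex (median -0.05). Of all genes tested, 29.8% were higher in the hippocampus and 29.2% in the neocortex. Gabra5, the alpha 5 subunit, which tonic inhibition of hippocampal pyramidal neurons uses, had 287, 278, 305, 297 and 289 CPM in the hippocampus and 74.4, 75.3, 78.3, 75.7 and 69.6 CPM in the neocortex (log2 fold change of 1.96 ± 0.05, FDR = 2.54e-13). This was the largest difference of the subunits tested. Gabra2 had 63.96, 118, 127, 123 and 137 CPM in the hippocampus and 45.8, 65.8, 61.98, 65.9 and 62.02 CPM in the neocortex (log2 fold change of 0.92 ± 0.16, FDR = 1.63e-04). Hippocampal library 1 lay among the neocortical libraries for Gabra2. The alpha subunit gene Gabra3 (-1.03 ± 0.07) was higher in the neocortex, as were Gabrd, Gabrg3 (-0.64 ± 0.12) and the low Gabrq (-1.72 ± 0.32).

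Serotonin receptors were called in both directions. Of 12 tested, 5 were higher in the hippocampus and 6 in the neocortex (median -0.12), beside 29.8% and 29.2% of all genes tested. With all 20 libraries fitted, 4 were higher in each region. The neocortical count was also 4 without the filter, without hippocampal library 2 or 3, and without neocortical library 1. Htr4, which raises cyclic AMP, had 15.1, 14.2, 15.8, 16.8 and 11.8 CPM in the hippocampus and 1.79, 2.57, 2.39, 1.44 and 1.53 CPM in the neocortex (log2 fold change of 2.93 ± 0.15, FDR = 5.84e-10), and Htr5b differed by 2.58 ± 0.16. Htr1a, an inhibitory receptor, had 53.1, 50.7, 52.5, 54.98 and 74.6 CPM against 17.9, 20.9, 21.05, 16.8 and 22.3 CPM (log2 fold change of 1.53 ± 0.11, FDR = 1.66e-08). Htr2a, through which psychedelic drugs act on cortical pyramidal neurons, had 26.1, 22.6, 27.6, 24.7 and 26.5 CPM in the neocortex and 9.67, 7.805, 9.06, 7.77 and 10.05 CPM in the hippocampus (log2 fold change of -1.52 ± 0.09, FDR = 2.23e-09). No library of either region overlapped for Htr4, Htr1a or Htr2a. Other receptors that inhibit their cells, Htr1d (-3.22 ± 0.43), Htr1f (-0.94 ± 0.18) and Htr5a (-0.82 ± 0.08), were higher in the neocortex, Htr1d at a low level (a mean of 1.69 ± 0.624 CPM, SD, there). Htr2c, a relative of Htr2a, was higher in the hippocampus (0.38 ± 0.12), though not when all 20 libraries were fitted (0.39, FDR = 0.0895), and the ion channel receptor Htr3a of interneurons was higher there as well (1.21 ± 0.12).

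For receptors of dopamine, noradrenaline, acetylcholine, histamine and adenosine, 27 of 40 listed genes were tested, 9 were higher in the hippocampus and 15 in the neocortex (median -0.87). Drd5, a dopamine receptor coupled to cyclic AMP, had 17.1, 17.4, 17.9, 22.99 and 26.6 CPM in the hippocampus and 1.62, 1.08, 0.908, 1.76 and 0.905 CPM in the neocortex (log2 fold change of 3.97 ± 0.19, FDR = 2.14e-10). Chrm5 (2.88 ± 0.31) and Chrna5 (1.34 ± 0.16), receptors of acetylcholine, were higher in the hippocampus at low levels. Adra1b, an alpha 1 adrenergic receptor, had 23.9, 21.6, 22.4, 21.8 and 20.95 CPM in the neocortex and 5.06, 3.97, 3.21, 3.18 and 3.99 CPM in the hippocampus (log2 fold change of -2.51 ± 0.11, FDR = 1.11e-10). Adora2a (-3.35 ± 0.18) and Drd2 were also higher in the neocortex, and both stand on the list of striatal genes described later.

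Of the 39 peptide receptor genes tested, 14 were higher in each region (median 0.08), beside 29.8% and 29.2% of all genes tested. With all 20 libraries fitted, 10 were higher in the hippocampus and 14 in the neocortex. Npy2r, a presynaptic receptor of neuropeptide Y, had 70.6, 69.3, 66.6, 71.01 and 68.2 CPM in the hippocampus and 5.397, 5.62, 6.11, 5.16 and 7.73 CPM in the neocortex (log2 fold change of 3.54 ± 0.09, FDR = 2.54e-13). Its libraries were within a few CPM of each other in either region, while Npy1r did not pass the test (0.05 ± 0.10, FDR = 0.692). Mc4r, a melanocortin receptor (2.3 ± 0.19), and Ghsr, the ghrelin receptor, were higher in the hippocampus, Ghsr from a low level (2.11, 2.56, 3.17, 2.89 and 1.86 CPM against 0, 0.358, 0.0825, 0.131 and 0.0696 CPM). Cckbr, the main brain receptor of cholecystokinin, was at 94.9, 93.6, 90.6, 88.2 and 96.3 CPM in the neocortex and at 9.52, 6.74, 6.07, 7.2998 and 8.29 CPM in the hippocampus (log2 fold change of -3.62 ± 0.09, FDR = 3.11e-13). Oprk1, the kappa opioid receptor, had 9.46, 9.56, 9.82, 9.92 and 9.12 CPM against 1.403, 1.28, 1.49, 1.61 and 1.502 CPM (log2 fold change of -2.71 ± 0.11, FDR = 4.79e-11), and Rxfp1, a relaxin receptor, differed by -2.29 ± 0.18.

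Nuclear hormone receptors were called in both directions. Nr3c2, the mineralocorticoid receptor, which has a high affinity for corticosterone, had 161, 151, 168, 168 and 160.0 CPM in the hippocampus and 34.7, 33.7, 32.4, 32.5 and 29.4 CPM in the neocortex (log2 fold change of 2.31 ± 0.06, FDR = 2.54e-13). Nr3c1, the glucocorticoid receptor, was higher in the neocortex by a smaller amount (-0.41 ± 0.08). Thra (0.63 ± 0.07) was higher in the hippocampus and Thrb (-0.76 ± 0.06) in the neocortex, both receptors of thyroid hormone, and the retinoid receptor Rxra (0.2 ± 0.06) was higher in the hippocampus where Rxrg (-1.2 ± 0.18) was higher in the neocortex. Rxra did not pass the test when all 20 libraries were fitted (0.21, FDR = 0.0528). Of the 13 tested, 3 were higher in the hippocampus and 5 in the neocortex (median -0.12), beside 29.8% and 29.2% of all genes tested. Of 20 paralogue pairs listed over all classes, both genes of 8 passed the test in opposite directions. Since 59.1% of all genes tested passed, this count is a description only. The pairs included Emx1 and Emx2, Gria1 and Gria3, Htr2a and Htr2c, Nr3c1 and Nr3c2, Rxra and Rxrg, the LIM domain genes Lmo3 (0.47 ± 0.06) and Lmo4 (-0.5 ± 0.07), and the pentraxins Nptx1 (0.64 ± 0.08) and Nptx2 (-1.62 ± 0.12). In 6 further pairs both genes passed in the same direction.

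**Figure D4:**
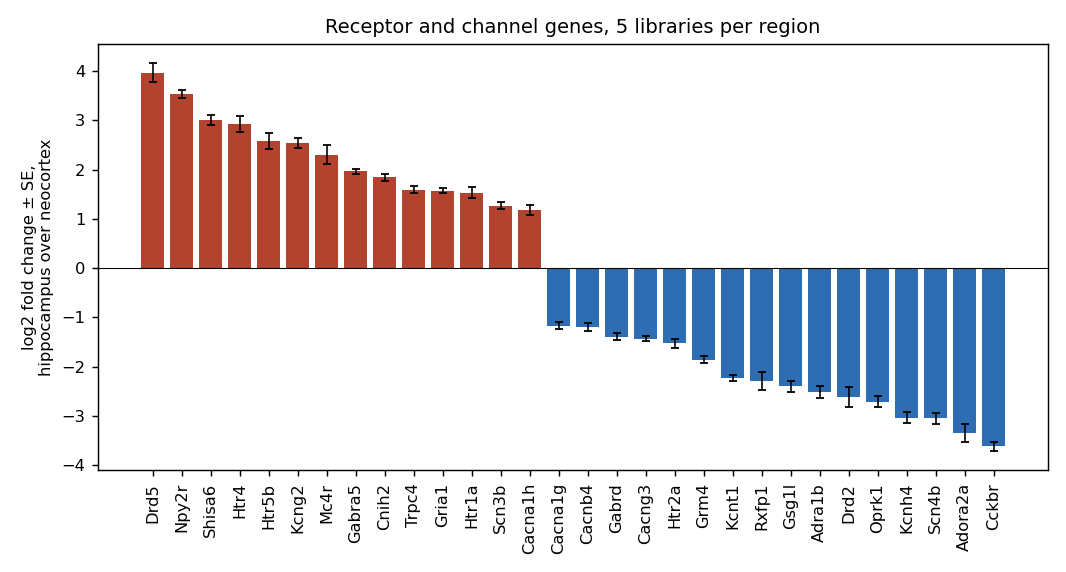
Log2 fold change (hippocampus over neocortex) with its SE for 30 receptor and channel genes, from the fit of 5 libraries per region. Bars run from Drd5 and Npy2r, the highest, to Adora2a and Cckbr, the lowest, and no error bar reaches 0.

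Potassium and HCN channel genes were more often higher in the neocortex than in the hippocampus. Of 78 potassium and HCN channel genes tested out of 96, 47 were higher in the neocortex, 19 of them at least 2-fold, and 15 in the hippocampus (median -0.38). Kcnh4, an ether-a-go-go type channel, had 25.2, 23.9, 24.9, 34.7 and 27.9 CPM in the neocortex and 3.36, 3.58, 3.12, 3.697 and 2.85 CPM in the hippocampus (log2 fold change of -3.03 ± 0.12, FDR = 2.17e-11). Kcnt1, a potassium channel opened by sodium, had 128, 128, 128, 148 and 145 CPM against 32.2, 28.7, 26.9, 27.7 and 28.4 CPM (log2 fold change of -2.23 ± 0.06, FDR = 1.21e-12). Both genes were several-fold higher in every neocortical library. Hcn4, a pacemaker channel, differed by -1.94 ± 0.22. Kcng2, a silent subunit of Kv2 channels, went the other way, with 26.2, 29.6, 26.04, 32.8 and 27.8 CPM in the hippocampus and 4.99, 5.38, 3.88, 4.897 and 5.08 CPM in the neocortex (log2 fold change of 2.54 ± 0.10, FDR = 1.81e-11), and the beta subunits Kcnab2 (0.9 ± 0.07) and Kcnab1 (0.71 ± 0.08) were higher in the hippocampus too.

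Of 26 sodium and calcium channel genes tested, 17 were higher in the neocortex and 3 in the hippocampus (median -0.41). Scn4b, a beta subunit of sodium channels, had 154, 123, 129.99, 129.9 and 90.3 CPM in the neocortex and 14.7, 13.4, 14.8, 16.7 and 16.1 CPM in the hippocampus (log2 fold change of -3.05 ± 0.12, FDR = 1.80e-11). Neocortical library 5 was the lowest of its group for Scn4b and for the striatal list below. Scn3b, another beta subunit, was higher in the hippocampus (334, 321, 359, 388 and 410.1 CPM against 143, 139, 150.3, 168 and 152 CPM, log2 fold change of 1.27 ± 0.07, FDR = 1.36e-09). Of the T-type calcium channels, Cacna1h was higher in the hippocampus (1.18 ± 0.10) and Cacna1g in the neocortex (-1.17 ± 0.07). Of 21 TRP and CLC channels, 5 were higher in the hippocampus, among them Trpc4 (1.6 ± 0.07), and 8 in the neocortex. The shares over all genes tested were 29.8% and 29.2%. Trpa1, a channel of irritants, had 1.604, 2.47, 1.22, 1.99 and 2.9001 CPM in the hippocampus and 0.0812, 0.239, 0.0825, 0 and 0.0696 CPM in the neocortex, where all libraries were under their floor except library 2.

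Neuropeptide genes were mostly higher in the neocortex. Of 23 peptide and granin genes tested, 12 were higher in the neocortex and 3 in the hippocampus (median -0.53). Penk, the precursor of enkephalins, had 140.0, 183, 152, 175 and 111 CPM in the neocortex and 29.8, 35.2, 31.3, 32.99 and 38.8 CPM in the hippocampus (log2 fold change of -2.18 ± 0.12, FDR = 7.35e-10). Trh, the precursor of thyrotropin-releasing hormone, had 3.04, 4.5996, 4.13, 4.96 and 3.62 CPM against 0.201, 0.0427, 0.226, 0.0474 and 0.104 CPM (log2 fold change of -4.97 ± 0.32, FDR = 5.67e-09). Crh, the stress peptide corticotropin-releasing hormone (-1.92 ± 0.19), and Cartpt (-2.16 ± 0.21) were higher in the neocortex at low levels. Grp, gastrin-releasing peptide, was higher in the hippocampus, at 33.6, 34.03, 25.3, 23.9 and 27.7 CPM against 8.89, 8.84, 6.93, 8.23 and 11.1 CPM (log2 fold change of 1.71 ± 0.13, FDR = 2.30e-08), and so was Nts, neurotensin (1.78 ± 0.20).

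Secreted growth factors were called in both directions, with 8 of 23 higher in each region (median 0.19), beside 29.8% and 29.2% of all genes tested that were higher in the hippocampus and in the neocortex. When all 20 libraries of the series were fitted together, 6 in place of 8 were higher in the hippocampus and 5 in place of 8 in the neocortex. Tgfb2, a transforming growth factor, had 81.96, 81.4, 92.5, 98.7 and 101 CPM in the hippocampus and 14.3, 19.7, 17.3, 17.2 and 16.7 CPM in the neocortex (log2 fold change of 2.42 ± 0.09, FDR = 1.06e-11). Beside Ntf3, Fgf10 (1.49 ± 0.10) was higher in the hippocampus. Bmp3 (-2.29 ± 0.16), Nrg1, a ligand of ErbB receptors (-1.88 ± 0.14), and Vegfa, the vascular growth factor (-0.66 ± 0.08), were higher in the neocortex.

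Interneuron genes differed by less than 2-fold in most cases. Of 27 tested, 16 were higher in the neocortex, 8 were higher in the hippocampus, and 1 and 3 of these genes, in that order, differed by at least 2-fold (median -0.38). Vip, the peptide of a class of interneurons that inhibit other interneurons, had 38.8, 31.5, 26.9, 31.3 and 37.7 CPM in the neocortex and 15.2, 16.04, 14.3, 13.2 and 20.2 CPM in the hippocampus (log2 fold change of -1.08 ± 0.12, FDR = 1.61e-06). Pvalb (-0.53 ± 0.06) and Npy (-0.78 ± 0.09) were higher in the neocortex, and Sst did not pass the test (-0.05 ± 0.11, FDR = 0.708). The receptor tyrosine kinase gene Kit (1.09 ± 0.12) and Ndnf (0.92 ± 0.11) were higher in the hippocampus with Calb2 and Htr3a. Over 12 genes of neurons in both regions, 6 were higher in the neocortex and 3 in the hippocampus, and none reached 2-fold. Camk2a, the kinase whose promoter drives Cre in the cTKO mice, was 1.35-fold higher in the hippocampus (0.43 ± 0.05), and the vesicular glutamate transporter Slc17a7 did not pass the test (0.04 ± 0.06, FDR = 0.578).

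Astrocyte genes were higher in the hippocampus for 10 of 14 tested, with 1 higher in the neocortex (median 0.44). Gfap, the intermediate filament of fibrous astrocytes, had 332, 403, 418, 416 and 551 CPM in the hippocampus and 75.6, 107, 108, 119 and 149 CPM in the neocortex (log2 fold change of 1.93 ± 0.15, FDR = 5.41e-08). Agt, angiotensinogen, had 27.4, 29.8, 21.4, 23.9 and 26.9 CPM against 5.97, 11.1, 11.97, 14.2 and 12.7 CPM (log2 fold change of 1.23 ± 0.17, FDR = 1.88e-05). These were the only members at 2-fold or more. Smaller differences were those of the water channel Aqp4 (0.58 ± 0.06) and the gap junction protein Gja1 (0.58 ± 0.07), Aldh1l1 was slightly higher in the neocortex (-0.23 ± 0.06) but not when all 20 libraries were fitted (-0.23, FDR = 0.0757), and the glutamate transporter Slc1a2 did not pass the test (0.1 ± 0.07, FDR = 0.229) except without hippocampal library 1 (0.15, FDR = 0.0457).

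Of 19 microglial genes, 12 were higher in the hippocampus and 1 in the neocortex, none of them by 2-fold (median 0.34). The hippocampal count was 11 when all 20 libraries were fitted. Tyrobp, an adaptor of receptors on myeloid cells, had 11.3, 14.2, 13.6, 10.002 and 12.3 CPM in the hippocampus and 7.39, 7.89, 8.25, 6.46 and 6.75 CPM in the neocortex (log2 fold change of 0.75 ± 0.11, FDR = 4.05e-05), and the complement gene C1qa differed by 0.46 ± 0.07. Cx3cr1 (0.11 ± 0.07, FDR = 0.203) and Csf1r (-0.03 ± 0.06, FDR = 0.705) did not pass the test. Of 20 genes of myelinating oligodendrocytes, 3 were higher in the hippocampus, 2 in the neocortex and 15 were not called (median 0.07). With the library number as a block, or without hippocampal library 5, 5 in place of 3 were higher in the hippocampus, and without neocortical library 1, 4 in place of 2 were higher in the neocortex. The latter count was 1 without hippocampal library 1 or 5 or neocortical library 2, 3 or 4. Myelin basic protein, Mbp, was at 2741, 3826, 4069, 3872 and 2667 CPM in the hippocampus and at 2133, 2724, 2798, 2624 and 2139 CPM in the neocortex (log2 fold change of 0.47 ± 0.12, FDR = 0.00357), with overlap, and in both regions libraries 1 and 5 were the lowest. Of 9 genes of oligodendrocyte precursors, 2 were higher in each region (median -0.02), with 1 in place of 2 higher in the hippocampus without hippocampal library 4 or neocortical library 1, 2 or 3. Endothelial genes were higher in the neocortex for 7 of 12 and in the hippocampus for 1 (median -0.28), with Flt1, a receptor of vascular growth factors, the most different (-0.64 ± 0.07). Of 8 genes of pericytes and smooth muscle, 3 were higher in the hippocampus, led by Tagln (1.23 ± 0.30), and 1 in the neocortex, Abcc9, a subunit of potassium channels of pericytes (-0.49 ± 0.12).

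Of tissues that border the dissected regions, choroid plexus and ependyma had all their tested markers higher in the hippocampus. Of 12 choroid plexus markers 8 passed the filter, and all 8 were at least 2-fold higher in the hippocampus (median 3.45). Ttr, the secreted carrier of thyroid hormone and retinol made by this epithelium, had 341, 424, 2458, 209 and 37.96 CPM in the hippocampus and 4.302, 4.66, 8.58, 6.72 and 6.33 CPM in the neocortex (log2 fold change of 6.87 ± 0.95, FDR = 1.70e-05). Library 3 held the highest level, and without it the log2 fold change was 5.42 (FDR = 1.18e-06). With the library number as a block it was 6.08. The summed level of the 12 markers was 441, 522, 2892, 295 and 87.3 CPM in the hippocampus and 13.9, 19.1, 19.4, 20.04 and 21.9 CPM in the neocortex. Kl, the gene of klotho, had 43.7, 44.3, 129.5, 47.8 and 31.8 CPM against 3.21, 4.78, 3.796, 4.57 and 5.57 CPM (log2 fold change of 3.78 ± 0.37, FDR = 4.37e-07), and Otx2, a homeodomain factor of this epithelium, had 2.71, 3.58, 15.9, 1.85 and 1.24 CPM against 0.203, 0.358, 0.0825, 0.261 and 0.557 CPM (log2 fold change of 4.11 ± 0.77, FDR = 3.17e-04). In these genes too hippocampal library 3 was the highest and library 5 the lowest, and without library 3 the log2 fold change of Otx2 was 3.00. The 4 ependymal genes that passed the filter were all higher in the hippocampus (median 1.09), Foxj1, the factor of motile cilia, by 0.93 ± 0.19. Of 8 markers of meningeal fibroblasts, 3 were higher in the hippocampus, beside 29.8% of all genes tested, and 5 were not called (median 0.46). Decorin, Dcn, led the 3 (2.13 ± 0.14), and 7 were higher when hippocampal library 5 was left out. That library had the lowest summed level of the 8 genes among hippocampal libraries, 126 CPM against 307 CPM in the highest, and neocortical libraries ranged from 72.9 to 119 CPM. The part of these tissues in the differences of other genes, Htr2c among them, was not tested. The 5 red blood cell genes were under 1 CPM in sum in every library and none was tested.

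All 10 markers of striatal projection neurons were higher in the neocortex, 8 of them at least 2-fold (median -2.11). Their summed level was 793, 807, 779.8, 897 and 653 CPM in the neocortex and 294, 317, 315, 303 and 326 CPM in the hippocampus, with neocortical library 4 the highest and 5 the lowest. Drd1 (-2.28 ± 0.13), Drd2, Adora2a, Gpr6 (-2.82 ± 0.23), Rgs9 (-1.94 ± 0.12) and Ppp1r1b, the phosphoprotein DARPP-32 (-1.59 ± 0.10), were among them. Adora2a was at 14.6, 15.2, 12.4, 17.2 and 10.999 CPM in the neocortex and at 1.55, 2.005, 1.09, 1.04 and 1.14 CPM in the hippocampus, and Drd2 at 14.7, 15.1, 10.9, 21.8 and 9.88 CPM and 2.46, 2.64, 2.04, 1.896 and 2.796 CPM. The neocortex itself expresses several of these genes. The part of striatal tissue in them, in Penk, in Scn4b and in other genes higher in the neocortex, such as Kcnh4 and Foxp2, was not tested. Of 8 thalamic genes tested, 2 were higher in the hippocampus, Lhx9 among them, and 3 in the neocortex, led by Tnnt1 (-1.5 ± 0.27), Ramp3 (-1.47 ± 0.12) and the vesicular glutamate transporter Slc17a6 (-1.35 ± 0.08). Over all genes tested the shares were 29.8% and 29.2%.

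**Figure D5:**
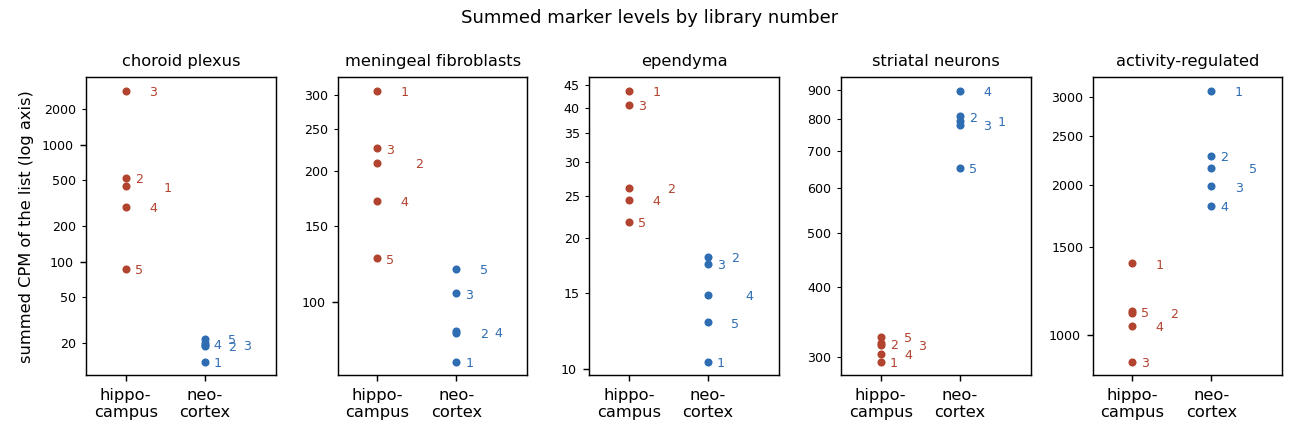
Summed CPM (log axes) of the markers of choroid plexus, meningeal fibroblasts, ependyma and striatal neurons and of activity-regulated genes, with each point marked by its library number. Hippocampal library 3 is the highest for choroid plexus and library 5 the lowest, neocortical library 1 is the highest for activity-regulated genes, and in all 5 sums the regions do not overlap.

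Cajal-Retzius cells, early neurons that persist in the adult hippocampus, had 4 of 6 markers tested and 3 of these higher in the hippocampus. Trp73, a relative of p53, had 4.06, 5.502, 7.38, 5.07 and 3.88 CPM in the hippocampus and 0.568, 0.836, 0.578, 0.849 and 0.209 CPM in the neocortex (log2 fold change of 3.07 ± 0.27, FDR = 1.86e-07). Hippocampal library 3 was the highest and library 5 the lowest for Trp73, as for the choroid plexus sum. The part of that tissue in Trp73 was not tested. Nhlh2, a bHLH factor, differed by 2.96 ± 0.33, and Reln (reelin), which interneurons also make, was higher in the neocortex (-0.82 ± 0.10). Genes of adult neurogenesis, which goes on in the dentate gyrus, were called in both directions, 3 of 12 higher in the hippocampus and 3 in the neocortex (median -0.17), beside 29.8% and 29.2% of all genes tested. Hopx, a marker of dentate stem cells that astrocytes share, had 50.1, 67.4, 68.6, 50.9 and 50.7 CPM in the hippocampus and 15.5, 15.9, 16.8, 20.1 and 17.2 CPM in the neocortex (log2 fold change of 1.76 ± 0.11, FDR = 3.31e-09). Igfbpl1, a marker of newborn granule cells, was at 1.504, 1.24, 1.72, 2.13 and 1.71 CPM against 0, 0.836, 0.3301, 0.783 and 0.627 CPM (log2 fold change of 1.76 ± 0.46, FDR = 0.00394). Dcx (doublecortin) went the other way, with 49.8, 52.3, 53.6, 46.8 and 49.5 CPM in the neocortex and 19.9, 16.3, 18.7, 17.1 and 18.3 CPM in the hippocampus (log2 fold change of -1.48 ± 0.07, FDR = 1.04e-10), and Stmn1, a microtubule protein, did as well (-1.26 ± 0.06).

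Activity-regulated early genes were higher in the neocortex for 13 of 17, 9 of them at least 2-fold (median -1.20). When all 20 libraries were fitted, 10 in place of 13 were higher there. Egr1, a zinc finger factor induced within minutes of activity, had 1017, 688, 617, 497 and 619 CPM in the neocortex and 260.2, 131, 118, 109.5 and 150.4 CPM in the hippocampus (log2 fold change of -2.16 ± 0.23, FDR = 9.96e-07). Library 1 was the highest in both regions. Egr2 had 37.2, 16.5, 12.8, 13.2 and 14.97 CPM against 7.52, 2.47, 0.906, 2.28 and 3.06 CPM (log2 fold change of -2.58 ± 0.41, FDR = 7.03e-05), and without neocortical library 1 its log2 fold change was -2.16 (FDR = 0.000158). Npas4, a bHLH factor that calcium entry induces, was at 47.7, 52.03, 38.7, 41.7 and 59.4 CPM in the neocortex and at 23.1, 19.5, 9.55, 13.8 and 19.6 CPM in the hippocampus (log2 fold change of -1.49 ± 0.18, FDR = 5.55e-06). Nptx2 was at 58.4, 63.4, 60.9, 54.3 and 72.6 CPM in the neocortex and at 19.3, 19.5, 19.1, 15.9 and 27.1 CPM in the hippocampus, with no overlap. Jun (1.27 ± 0.11) and Nr4a3 (0.97 ± 0.20) were higher in the hippocampus, Nr4a3 with overlap between the regions.

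Axon guidance genes were called in both directions, 23 of 66 higher in the hippocampus and 29 in the neocortex (median -0.07). Over all genes tested the shares were 29.8% and 29.2%. Nrp1, a receptor of semaphorins, had 133, 123, 122, 129.6 and 125 CPM in the hippocampus and 37.5, 38.6, 35.2, 30.7 and 38.7 CPM in the neocortex (log2 fold change of 1.81 ± 0.06, FDR = 6.84e-12), and the repellent Slit1 was 3.23-fold higher in the hippocampus (1.69 ± 0.08). Plxnd1, a semaphorin receptor, had 182, 161, 172, 174 and 176 CPM in the neocortex and 35.3, 37.02, 29.7, 29.4 and 35.2 CPM in the hippocampus (log2 fold change of -2.38 ± 0.07, FDR = 1.21e-12). The ligand genes were split too, with Sema3e (1.51 ± 0.08) and Sema5a (1.52 ± 0.10) higher in the hippocampus and Sema3a (-2.72 ± 0.14), Sema3f (-1.88 ± 0.18) and the ephrin Efna5 (-2.42 ± 0.11) higher in the neocortex. Of 30 cadherins and protocadherins, 8 were higher in the hippocampus and 16 in the neocortex (median -0.36). Pcdh20 had 184, 189, 177, 204 and 199 CPM in the hippocampus and 19.2, 20.8, 16.9, 18.7 and 20.7 CPM in the neocortex (log2 fold change of 3.3 ± 0.07, FDR = 5.88e-14), and Pcdh19 differed by 1.2 ± 0.08. Cdh7 (-2.35 ± 0.16), Cdh6 (-1.79 ± 0.13) and Pcdh15 (-1.68 ± 0.10) were higher in the neocortex.

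Of the 3 genes whose floxed alleles the controls carry, Aplp2 passed the test. App, the amyloid precursor protein, had a mean of 1513 ± 95.7 CPM (SD, n = 5) in the hippocampus and 1616 ± 115 CPM in the neocortex, and did not pass the test (-0.09 ± 0.06, FDR = 0.176). Aplp1 did not pass it either (0.05 ± 0.05, FDR = 0.417). Aplp2 had 629, 675, 639, 644 and 489.6 CPM in the hippocampus and 710.2, 833, 833, 821 and 624 CPM in the neocortex and was 1.24-fold higher in the neocortex (log2 fold change of -0.31 ± 0.09, FDR = 0.00892).

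The region comparison was repeated in the 10 cTKO libraries, which come from other mice of the series. Of the 8169 genes called in controls, 8114 were tested in cTKO mice, 98.3% had the same sign there, and 65.4% had the same sign with FDR under 0.05. Of the 1143 genes that differed by at least 2-fold in controls, 1105 were tested, 1097 had the same sign and 1013 also had FDR under 0.05. Without neocortical library 5 and hippocampal library 4 of the cTKO group, these counts were 1099 and 1018. The share of all control calls with the same sign and FDR under 0.05 was then 60.5% in place of 65.4%. Genes named above that differed by at least 2-fold in controls and did not pass in cTKO mice were Penk (log2 fold change of -2.18 in controls and -0.28 in cTKO mice, FDR = 0.354 there), Ndst4 (1.47 and 0.57, FDR = 0.127), Nptx2 (-1.62 and -1.13, FDR = 0.158), Tagln (1.23 and -0.0027, FDR = 0.991) and Tnnt1 (-1.50 and -0.81, FDR = 0.0641). Whether the 2 genotypes differed in these genes was not tested.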

How the data were processed

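RNA-seq libraries of hippocampus and neocortex of control mice were analysed, 5 of each region at 3 months of age. According to the study's methods, both regions were taken from the same controls, polyadenylated RNA was sequenced as single-end reads, and reads were mapped to mm10 with STAR (version 2.5.4a) and counted per gene with HTSeq. The deposited files hold these whole-number counts per gene and library, not normalised by the authors. The strand setting and the annotation used for counting are not given in the sources used here. The methods name different sequencer models without saying which libraries each ran. In the study's supplement, the share of uniquely mapped reads was lower in every control hippocampal library than in every control neocortical library.

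The filter on low genes required CPM above 1 in 5 or more of the 10 libraries. Scaling factors were those of TMM, and the regions were compared with the quasi-likelihood F-test of edgeR (version 4.0.16, R 4.3.3) with Benjamini-Hochberg adjustment (FDR under 0.05), without a block. All p-values are two-sided. They rest on the spread over 5 libraries per region and do not use that both regions came from the same controls. Alternatives used limma 3.58.1 (a dependency of edgeR) and DESeq2 1.42.0, other scaling factors, filters and tests, thinned counts, all 20 libraries of the series, and each library left out. The procedure was tested on simulated counts. No 2 libraries of a region agreed within sampling noise. Deviations of same-numbered libraries from their region's mean correlated at 0.124 to 0.333, those of other pairs at -0.276 to 0.126, and all 5 libraries of each region were closest to their own number, so the numbers were taken to pair the regions by mouse, and a fit with that block is an alternative.

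Named genes were the 10 largest differences per direction (FDR under 0.05, higher mean of at least 5 CPM, no overlap), up to 4 genes per list and direction, defining markers of cell types, paralogue pairs that passed in opposite directions, and App, Aplp1 and Aplp2. Cux1, Klf9, Neurod1, Neurod2, Nfia, Nfib, Npy1r, Pou3f2, Rora and Tbr1 were named after their values were seen. The comparison, the gene lists and the tests were chosen with earlier results of these data known. Gene positions and promoters are those of RefSeq on GRCm38.p6, the assembly that mm10 names, and lists are described by counts and medians without a test. Some genes that meet the rule for named genes are not reported here.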

Additional observations from a re-analysis of the deposited data

Results flagged for a closer look

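For each gene that the text names and each printed sum of markers, the level in each group of 5 libraries was examined. A library was flagged when its gap to its nearest neighbour made up more than 0.71 of the group's range (Dixon's test at 95%). Of 448 groups, 32 had such a library (7.14%), and chance alone gives about 1 in 20.

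Hippocampal library 3 stood apart for choroid plexus genes. It held 2458 CPM of Ttr, 129.5 CPM of Kl, 15.9 CPM of Otx2 and 2892 CPM of the summed choroid plexus markers. It was also the highest for Zbtb20 (31.6 CPM) and Pvalb (31.7 CPM).

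Library 1 stood apart for several activity-regulated genes. In the hippocampus it was the highest for Egr1 (260.2 CPM) and Nr4a3 (155 CPM), and in the neocortex for Egr2 (37.2 CPM) and Nr4a3 (102 CPM). In the same neocortical library Cdh7 (17.2 CPM), Kcnab1 (106 CPM), Kit (60.7 CPM), Rora (134 CPM) and Sema3a (41.1 CPM) were high. Gabra2 was low in library 1 of both regions, at 63.96 CPM in the hippocampus and 45.8 CPM in the neocortex. Hippocampal library 1 was also the lowest for Hsd11b1 (26.7 CPM).

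Hippocampal library 5 was the lowest for Aplp2 (489.6 CPM) and the highest for Emx2 (36.7 CPM) and Htr1a (74.6 CPM). Hippocampal library 4 was the lowest for Rasgef1c (1.47 CPM) and the highest for Syt6 (12.1 CPM). Neocortical library 2 was the lowest for A830009L08Rik (4.66 CPM) and Deptor (45.7 CPM) and the highest for Nts (4.78 CPM). Neocortical library 3 was the highest for Prox1 (16.2 CPM), Htr5a (40.3 CPM) and Chrna5 (3.88 CPM), and neocortical library 4 was the lowest for Grik3 (150.03 CPM). Of genes at low level, Nxf7 had 0.0453 CPM in hippocampal library 3 and Pla2g2f had 0.209 CPM in neocortical library 5, both the highest of their groups.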

How the results depend on the processing

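The numbers of genes with FDR under 0.05 in each direction stayed within 1.5 times those reported under every other scaling, test and filter tried. Leaving out 1 library gave 3851 to 4079 genes higher in the hippocampus and 3808 to 3990 higher in the neocortex, and 418 to 455 and 692 to 738 at 2-fold or more. Without the filter, 745 and 1108 genes were at least 2-fold higher in the hippocampus and the neocortex, since more genes of low count were tested. A test against a 2-fold change (glmTreat of edgeR) called 233 and 425 genes. The replicate block, which pairs the libraries by number, gave 8493 calls against 8169 (4288 and 4205 in the 2 directions, 439 and 711 at 2-fold or more). Among the results of the text it changed the call of Wfs1 and the count of oligodendrocyte genes, as given there, and no other call of a gene that the text names. The counts of 11 other lists also moved, by 1 to 4 genes in a direction, among them activity genes (15 in place of 13 higher in the neocortex), microglial genes (14 in place of 12 higher in the hippocampus) and mural genes (2 in place of 3). With all 20 libraries in a single fit, 7258 genes were called, and Aldh1l1, Calb1, Fezf2, Htr2c, Klf9, Plk5, Rxra and Scnn1a lost their call. In that fit 10 activity genes were higher in the neocortex and 11 microglial genes in the hippocampus. Klf9 and Plk5 also lost it without the filter, and Klf9 with thinned counts, and the cause was not tested. With 1 library left out, the log2 fold change of Sst ranged from -0.118 to 0.0339 and that of Npy1r from -0.0247 to 0.134, neither called. The medians of the lists of GABA and serotonin receptors, TRP and CLC channels, oligodendrocyte precursors, thalamic genes and mural genes changed sign in at least 1 alternative, and none of them carries a direction in the text. The median log2 fold change of all genes tested stayed between 0.0039 and 0.0268. The extraction reagents differed with the region in every library. Depth limits genes near the floor of 3 counts, where fold changes depend on a few reads.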

Other observations

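Some of the largest ratios between the regions belonged to genes too low for the minimum of 5 CPM, chosen here after their values were seen. Nxf7, a relative of RNA export factors, had 2.43, 1.91, 1.32, 1.18 and 1.11 CPM in neocortical libraries 1 to 5, with 1 read in hippocampal library 3 and 0 reads in the other hippocampal libraries. Olfr78, an olfactory receptor gene that is also expressed outside the nose, had 3.65, 3.704, 4.46, 3.13 and 3.06 CPM in the neocortex and 0.1504, 0.213, 0.272, 0.0474 and 0.155 CPM in the hippocampus (log2 fold change of -4.35 ± 0.28, FDR = 5.55e-09). Ptprv, a receptor-type phosphatase gene, had 3.69, 2.69, 3.38, 2.87 and 2.44 CPM in the neocortex and 0, 0.0853, 0.181, 0.0948 and 0.104 CPM in the hippocampus (log2 fold change of -4.91 ± 0.34, FDR = 1.32e-08). Pla2g2f, a secreted phospholipase, was the reverse, with 1.45, 3.92, 2.31, 2.56 and 2.43 CPM in the hippocampus and 0.0406, 0, 0, 0 and 0.209 CPM in the neocortex (log2 fold change of 5.54 ± 0.54, FDR = 4.67e-07). No library of either region overlapped for these 4 genes.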
